A study of Homo sapiens with 6 samples.

Results

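Death receptors are cell surface proteins of the TNF receptor family that can start apoptosis from outside the cell. The 10 genes described here are 5 receptor genes, FAS, TNFRSF10A, TNFRSF10B, TNFRSF10D and TNFRSF1A, and 5 genes of the complexes that form on them, FADD, TRADD, CASP8, CFLAR and RIPK1. They were picked by gene name from the 62754 genes of the deposited count table, and each name matched 1 row. All 10 had at least 10 counts in at least 3 libraries, so none was low, and their counts in a library ran from 91 to 2430.

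The study asked what lowering NAT10, an RNA and protein acetyltransferase, does in Cisplatin-injured tubular cells. HK-2, a human proximal tubule epithelial line immortalised with papillomavirus E6 and E7 genes, received either a negative control siRNA, the group CP+siNC, or NAT10 siRNA, the group CP+siNAT10. Each group had 3 libraries of stranded mRNA sequencing, numbered as cells 1 to 3, and the labels do not say whether these were separate cultures. Every library came from cells given Cisplatin, so neither group was untreated. The labels state no dose or time, and the study's methods settled on a day at the highest concentration of their dose series. HK-2 is 1 cell line, and the viral E6 protein is known to promote the breakdown of p53, which limits the line as a model of p53-dependent responses. Total counts were 19321665, 21602988 and 19464027 in the CP+siNC libraries and 20793709, 21531774 and 25192736 in the CP+siNAT10 libraries.

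The label was checked against marker genes. Of 10 markers of HK-2 and epithelial cells 9 were measured well enough to test, led by the keratin gene KRT8 at 1455 ± 21.1 CPM (counts scaled to 1e+06 per library after TMM normalization, SD, n = 3) in CP+siNC and 1450 ± 18.7 CPM in CP+siNAT10, while CDH1 had 6 counts in all libraries together. The list also holds VIM and CDH2, which mesenchymal cells express too, at 449.0 ± 4.31 and 75.2 ± 2.59 CPM in CP+siNC and 398.5 ± 7.37 and 86.2 ± 2.26 CPM in CP+siNAT10. Of the 9 tested 3 were higher and 3 lower at an adjusted p under 0.05, where 21.8% of all tested genes were higher and 22.3% lower. Among these markers the log2 fold changes were 0.59 for PAX8, 0.20 for CDH2, -0.36 for KRT18 and -0.17 for VIM. Of 9 markers of the proximal tubule, 3 could be tested, and GGT1 was the most abundant at 33.2 ± 0.177 CPM in CP+siNC and 27.4 ± 1.92 CPM in CP+siNAT10 (SD, n = 3; log2 fold change -0.28, adjusted p = 9.92e-05 by edgeR). The transport genes LRP2, CUBN and SLC34A1 had 3, 23 and 34 counts over the 6 libraries, ANPEP and HNF4A had 19 and 30, and SLC22A6 had 0. SLC5A2, the gene of the glucose transporter SGLT2, was at 9.30 ± 0.864 CPM in CP+siNC and 11.5 ± 0.104 CPM in CP+siNAT10 (SD, n = 3; log2 fold change 0.31, adjusted p = 0.00363 by edgeR), and the water channel gene AQP1 was at 1.03 ± 0.216 and 0.694 ± 0.161 CPM (log2 fold change -0.56, adjusted p = 0.111, edgeR). The cells thus carried keratin and mesenchymal markers together, and the other 6 of the 9 markers of the proximal tubule had too few counts to test.

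The extrinsic pathway begins when a ligand such as FAS ligand, TRAIL or TNF gathers its receptor on the membrane. FAS and the TRAIL receptors then recruit the adaptor FADD and the protease caspase-8 into a signalling complex, where the caspase-like protein c-FLIP competes with caspase-8, and active caspase-8 passes the signal on directly or through mitochondria. TNF receptor 1 first assembles TRADD and the kinase RIPK1 into a complex that favours survival signals, and tubular cells are known to express these receptors in kidney injury, Cisplatin injury included.

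The targeted gene was lower where its siRNA was used. NAT10 (ENSG00000135372) lies on chromosome 11 from 34105617 to 34147670 (GRCh38). It was at 75.8, 71.4 and 73.2 CPM in the CP+siNC libraries and at 41.3, 40.5 and 42.4 CPM in the CP+siNAT10 libraries, so the groups did not overlap. The log2 fold change was -0.82 (SE, its standard error, 0.0426, and adjusted p = 2.79e-15 by the edgeR quasi-likelihood fit with Benjamini-Hochberg correction over 19874 tested genes).

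With NAT10 siRNA, FAS fell to 36.8% of its control level, and the decoy receptor gene TNFRSF10D, the caspase-8 inhibitor gene CFLAR and the kinase gene RIPK1 fell by smaller amounts. TNFRSF1A, CASP8 and TNFRSF10B rose. TNFRSF10A, FADD and TRADD did not pass the test. In all 7 of the 10 genes passed an adjusted p of 0.05, where 44.1% of all 19874 tested genes did. Of these 4 were lower, against 22.3% of all tested genes, and 3 were higher, against 21.8%. Only FAS also had a log2 fold change over 1 in size, 1 of 10 genes where 2.33% of all tested genes passed both limits. In 8 of the 10 genes the CPM values of the groups did not overlap, which was so for 51.4% of all tested genes. The median log2 fold change of the 10 genes was -0.029, beside 0.0070 for all tested genes, and it was 0.0091 beside 0.0444 when libraries were scaled by total counts only, so it stayed below that of all tested genes. The median size of the change, 0.20, was close to the 0.21 of all tested genes. With FAS included, the median size was thus a common one in this comparison. The share of tested genes with a larger change is given below for FAS only. In RNA from whole cultures, fewer cells that express a gene and less of its RNA per cell cannot be told apart.

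**Figure D1:**
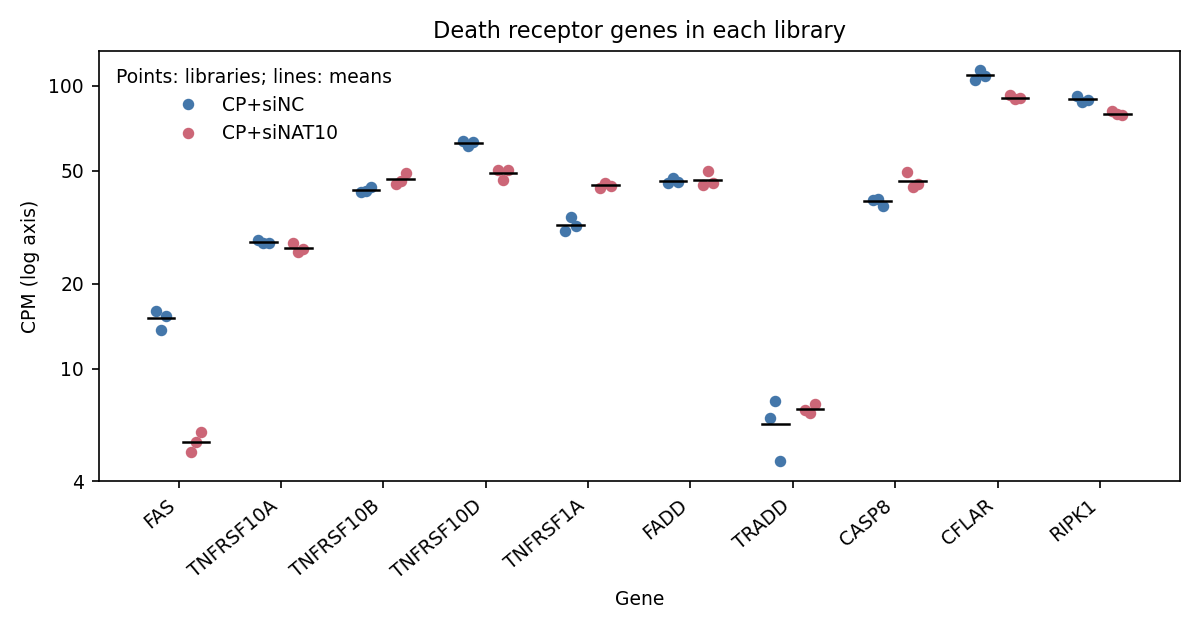
CPM of the 10 genes in each library on a log axis, with points for libraries and lines for the means of CP+siNC and CP+siNAT10 (n = 3 each). FAS shows the widest gap between groups, and the points of FADD and TRADD overlap.

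FAS encodes the receptor of FAS ligand. In CP+siNC it was at 16.0, 13.7 and 15.4 CPM, from 302, 294 and 297 counts. In CP+siNAT10 it was at 5.08, 5.49 and 5.96 CPM, from 107, 120 and 151 counts. The groups were far apart, and the gap between the lowest control and the highest CP+siNAT10 library was wider than the spread within either group. The log2 fold change was -1.44 (SE 0.0923, adjusted p = 2.94e-13 by the edgeR quasi-likelihood fit with Benjamini-Hochberg correction). Of all tested genes 54 had a lower log2 fold change, and 0.448% had one larger in size.

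The start region of FAS is shown because FAS changed most, and that of TNFRSF1A because it rose most among the 10 genes. The sequences are RefSeq windows on GRCh38.p14 that run from 250 bases before to 50 bases after a transcript start, written along the gene's strand. Windows matched 6 of the 10 genes, and TNFRSF10A, TNFRSF10B, TNFRSF10D and TRADD were not matched. FAS had 3 windows, and the one printed starts its transcript closest to that of the principal GENCODE 29 transcript, at a distance of 141 bases. It lies at chr10:88990548-88990847 on the plus strand. The only TNFRSF1A window lies at chr12:6342027-6342326 on the minus strand. Capitals mark the motifs found.
FAS: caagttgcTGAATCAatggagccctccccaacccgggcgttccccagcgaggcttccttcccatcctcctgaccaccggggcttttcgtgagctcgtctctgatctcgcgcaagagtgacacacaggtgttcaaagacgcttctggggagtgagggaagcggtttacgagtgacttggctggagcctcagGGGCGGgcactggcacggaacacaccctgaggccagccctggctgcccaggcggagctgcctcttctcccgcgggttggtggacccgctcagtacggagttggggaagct
TNFRSF1A: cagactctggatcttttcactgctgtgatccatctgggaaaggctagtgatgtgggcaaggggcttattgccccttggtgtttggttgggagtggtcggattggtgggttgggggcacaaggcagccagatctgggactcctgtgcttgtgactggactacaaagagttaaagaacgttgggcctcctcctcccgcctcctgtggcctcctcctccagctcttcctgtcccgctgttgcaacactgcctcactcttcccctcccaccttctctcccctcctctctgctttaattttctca

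The windows were searched on both strands for the AP-1 motif TGANTCA, the SP1 motif GGGCGG, the NF-kappaB consensus and the p53 half-site consensus, and no printed match overlapped another. The FAS window holds 1 AP-1 match from base 9 and 1 SP1 match from base 191. The TNFRSF1A window holds none of the 4 motifs. Another FAS window, at chr10:88991181-88991480, holds 1 match to the NF-kappaB consensus, 1 to the p53 half-site and 2 to SP1. Among all 35116 RefSeq windows of this length, 7.71% hold the AP-1 motif, 45.0% the SP1 motif, 11.3% the NF-kappaB consensus and 6.63% the p53 half-site. The 6 matched genes have 15 windows in all. An AP-1 match is in 5 of these 15, from CASP8, CFLAR, FADD and FAS, and an SP1 match in 10, from the same 4 genes and RIPK1. Windows of the same gene can overlap, as for FAS and RIPK1, so a single site can count in more than 1 window. The NF-kappaB consensus is in 2 windows, 1 each of CFLAR and FAS, and the p53 half-site in 2, 1 each of CASP8 and FAS. These matches are letters in a window, and binding was not measured.

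The FAS row covers a wide region in the table, from 88953813 to 89017059 on chromosome 10, with a length of 29313 bases, which is 11.4 times the 2563 bases of its principal GENCODE 29 transcript. It overlaps STAMBPL1 on the same strand, which encodes a deubiquitinase, by 21341 bases of span. STAMBPL1 went from 7.09 ± 0.727 to 5.67 ± 0.770 CPM with NAT10 siRNA (SD, n = 3), a log2 fold change of -0.32 (adjusted p = 0.0225 by the edgeR quasi-likelihood fit with Benjamini-Hochberg correction). That fall was smaller than the fall of FAS. On the opposite strand, the smooth muscle actin gene ACTA2 was at 0.834 ± 0.145 and 0.525 ± 0.138 CPM, and the unnamed gene ENSG00000286116 at 1.07 ± 0.209 and 0.482 ± 0.240 CPM. The latter passed the test with a log2 fold change of -1.10 (adjusted p = 0.00641, edgeR). How reads in shared exons and on the opposite strand were counted is not stated in the sources used here, so reads of these genes cannot be told apart where they overlap.

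TRAIL binds 4 membrane receptors, whose genes sit side by side on chromosome 8 in 205 kb, from 23020133 to 23225061, in the order TNFRSF10B, TNFRSF10C, TNFRSF10D and TNFRSF10A. TNFRSF10A and TNFRSF10B carry a death domain and signal, while TNFRSF10C and TNFRSF10D lack a working one and act as decoys. TNFRSF10C had 3 counts in all, so TNFRSF10D was the only membrane decoy with a measurable level.

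TNFRSF10D was at 63.6, 61.3 and 63.6 CPM in CP+siNC and at 50.3, 46.4 and 50.5 CPM in CP+siNAT10. The groups did not overlap, and each spread over a few CPM. Its log2 fold change was -0.36 (SE 0.0437, adjusted p = 1.08e-07 by the edgeR quasi-likelihood fit with Benjamini-Hochberg correction), a fall to 78.2% of the control level. TNFRSF10B, which encodes the signalling receptor DR5, was at 42.2, 42.4 and 43.9 CPM in CP+siNC and at 45.0, 46.1 and 49.3 CPM in CP+siNAT10. Every CP+siNAT10 library was above every control, by a narrow margin. The log2 fold change of 0.13 (SE 0.0467, adjusted p = 0.0232 from edgeR) had the largest adjusted p of the 7, and it did not pass with DESeq2 (adjusted p = 0.108) or without CP+siNC replicate 1, CP+siNC replicate 2 or CP+siNAT10 replicate 3 (adjusted p = 0.0845, 0.0808 and 0.166 from edgeR). Over the 14 alternatives its adjusted p ran from 0.00460 to 0.166. TNFRSF10A, the gene of DR4, was at 28.5, 27.9 and 27.8 CPM in CP+siNC and at 27.7, 25.8 and 26.5 CPM in CP+siNAT10. The groups did not overlap, though the lowest control, at 27.78 CPM, was barely above the highest CP+siNAT10 library, at 27.74 CPM, and the log2 fold change was -0.074 with a 95% confidence interval from -0.18 to 0.034 (adjusted p = 0.272, edgeR).

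TNFRSF1A encodes TNF receptor 1. It was at 30.6, 34.3 and 32.0 CPM in CP+siNC and at 43.6, 45.3 and 44.4 CPM in CP+siNAT10. All 3 CP+siNAT10 libraries were higher than all controls, and the gap exceeded the spread within either group. TNFRSF1A rose with a log2 fold change of 0.46 (SE 0.0494, adjusted p = 1.08e-08 by the edgeR quasi-likelihood fit with Benjamini-Hochberg correction), or 1.37-fold. TRADD, the adaptor that binds this receptor, had the fewest counts of the 10 genes when the 6 libraries are summed, while FAS had fewer in each CP+siNAT10 library. Its CPM values were 6.69, 7.71 and 4.72 in CP+siNC and 7.17, 6.95 and 7.50 in CP+siNAT10. CP+siNC replicate 3 was low and the groups overlapped. The log2 fold change was 0.17 with a 95% confidence interval from -0.080 to 0.42 (adjusted p = 0.275, edgeR). Single libraries decided its direction and call, since the log2 fold change was -0.0047 without CP+siNC replicate 3 (adjusted p = 0.978, edgeR) and 0.34 without CP+siNC replicate 2 (adjusted p = 0.0430, edgeR), and its adjusted p over the 14 alternatives ran from 0.0430 to 0.978.

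FADD, the adaptor shared by FAS and the TRAIL receptors, was at 45.5, 47.1 and 45.6 CPM in CP+siNC and at 44.6, 50.1 and 45.3 CPM in CP+siNAT10. The groups overlapped, with CP+siNAT10 replicate 2 the highest of the 6. Its log2 fold change was 0.017, with a 95% confidence interval from -0.081 to 0.11 (adjusted p = 0.811 by the edgeR quasi-likelihood fit with Benjamini-Hochberg correction), and it was -0.034 without CP+siNAT10 replicate 2.

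CASP8 encodes the initiator protease caspase-8. It was at 39.5, 39.9 and 37.7 CPM in CP+siNC and at 49.5, 43.9 and 44.9 CPM in CP+siNAT10. CP+siNAT10 replicate 1 was the highest, and all libraries of that group lay above the controls. CASP8 rose with a log2 fold change of 0.24 (SE 0.050, adjusted p = 0.000278 by the edgeR quasi-likelihood fit with Benjamini-Hochberg correction). CFLAR, which encodes c-FLIP, moved the other way. It was at 104.8, 113.5 and 108.6 CPM in CP+siNC and at 92.5, 89.7 and 90.6 CPM in CP+siNAT10, again without overlap. CFLAR fell with a log2 fold change of -0.26 (SE 0.0376, adjusted p = 1.38e-06, edgeR). CFLAR, CASP10 and CASP8 lie in that order within 246 kb of chromosome 2, from 201116154 to 201361836. CASP10, the close relative between them, was at 13.3 ± 1.11 and 12.6 ± 0.468 CPM (SD, n = 3) and did not pass the test (log2 fold change -0.080, adjusted p = 0.433, edgeR).

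RIPK1 encodes a kinase that serves survival signalling and necroptosis and is cleaved by caspase-8. It was at 92.0, 87.6 and 89.1 CPM in CP+siNC and at 81.3, 79.3 and 78.7 CPM in CP+siNAT10. The groups did not overlap. RIPK1 fell with a log2 fold change of -0.17 (SE 0.0375, adjusted p = 0.000563 by the edgeR quasi-likelihood fit with Benjamini-Hochberg correction), a fall to 89.1% of the control level.

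**Figure D2:**
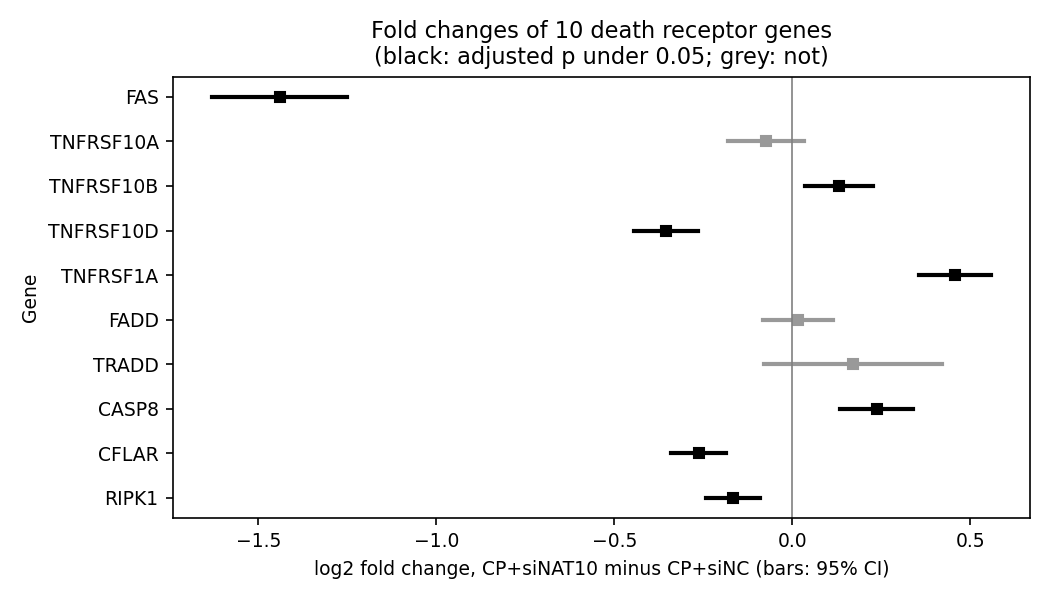
Log2 fold change of each gene, CP+siNAT10 minus CP+siNC, with 95% confidence intervals from edgeR (n = 3 per group), black where the adjusted p was under 0.05. FAS stands at -1.44, and the other 9 genes lie between -0.36 and 0.46.

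Apart from FAS, 6 other genes of the 10 share span with other genes of the table, and TNFRSF10D, TNFRSF1A and TRADD share none. There were 18 such overlapping genes, 14 of them on the opposite strand. Of these 18 genes 11 were tested and 3 passed, where 44.1% of all tested genes passed. The third that passed, after STAMBPL1 and ENSG00000286116, was the antisense gene CFLAR-AS1, which went from 10.8 ± 0.667 to 8.44 ± 0.349 CPM (SD, n = 3; log2 fold change -0.35, adjusted p = 0.00129 by the edgeR quasi-likelihood fit). It thus moved in the same direction as CFLAR, and its antisense reads cannot be told apart from those of CFLAR without the strand setting. In CASP8 the overlapping gene ENSG00000289698 on the same strand was at 10.7 ± 0.722 and 12.0 ± 1.03 CPM (adjusted p = 0.141, edgeR). Next to TNFRSF10B, RHOBTB2 overlaps by 67 bases and was at 17.3 ± 1.15 and 19.4 ± 0.742 CPM (adjusted p = 0.0512, edgeR). TNFRSF10A-AS1, TNFRSF10A-DT, IMPDH1P10 in CFLAR, ENSG00000254721 in FADD and ENSG00000272277 in RIPK1 had log2 fold changes between -0.039 and 0.063. The remaining overlapping genes with too few counts to test were ENSG00000275693, RPL23AP55, ENSG00000246130, FLACC1, RPL38P5, RNU7-45P and RNA5SP201.

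Ratios of genes within a library were taken on the log2(CPM + 0.5) scale for 4 pairs of roles. The ratio of FAS to TNFRSF10B had log2 values of -1.37, -1.59 and -1.48 in CP+siNC and of -3.03, -2.96 and -2.95 in CP+siNAT10, a difference of -1.50, or -1.43 when 1 was added in place of 0.5. The ratio of CFLAR to CASP8, inhibitor to protease, was 2.63, 2.82 and 2.86 in CP+siNC and 1.86, 2.03 and 2.01 in CP+siNAT10 on the linear scale, a log2 difference of -0.49. The groups were apart in both ratios. The sum of TNFRSF10A and TNFRSF10B over TNFRSF10D, signalling receptors to decoy, had log2 values of 0.15, 0.20 and 0.17 in CP+siNC and of 0.53, 0.63 and 0.58 in CP+siNAT10, a difference of 0.41. The ratio of RIPK1 to CASP8 was 1.21, 1.12 and 1.23 in CP+siNC and 0.71, 0.85 and 0.81 in CP+siNAT10 on the log2 scale, a difference of -0.40. The groups were apart in these ratios too. In each of the 4, the two-sided exact permutation test gave p = 0.1, which is the smallest that 3 against 3 libraries allow, and p = 0.1 after Benjamini-Hochberg adjustment over the 4 ratios, so none could pass 0.05. The ratio differences restate, nearly in full, the fold changes of their genes given above, so they are not a separate result. They also compare counts without regard to gene length.

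Levels were compared between genes per kb of gene length. With the lengths in the table, the order in CP+siNC was FADD at 27.0 ± 0.519 CPM per kb (SD, n = 3), TNFRSF10D at 17.8 ± 0.376, TNFRSF10A at 9.59 ± 0.137, TNFRSF10B at 8.55 ± 0.184, TNFRSF1A at 7.69 ± 0.443, RIPK1 at 7.36 ± 0.184, CASP8 at 5.40 ± 0.165, CFLAR at 4.85 ± 0.195, TRADD at 2.93 ± 0.698 and FAS at 0.514 ± 0.0407 CPM per kb. TNFRSF1A and RIPK1 were the only neighbours in this order that differed by no more than their summed SDs. In CP+siNAT10 TNFRSF1A moved up to position 3, at 10.6 ± 0.212 CPM per kb, ahead of TNFRSF10B at 9.34 ± 0.452 and TNFRSF10A at 9.11 ± 0.336, which did not differ beyond their spread. RIPK1 at 6.55 ± 0.112 and CASP8 at 6.37 ± 0.418 CPM per kb did not differ beyond it either, and FADD remained at position 1 and FAS at position 10.

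The table lengths join all exons of a gene, so the comparison was repeated with the length of the longest principal transcript in GENCODE 29, a choice made after seeing the data. FAS was then at 5.88 ± 0.466 CPM per kb of transcript in CP+siNC, above TRADD at 3.40 ± 0.808, and at 2.15 ± 0.171 in CP+siNAT10, below TRADD at 3.84 ± 0.145. CASP8 rose to position 2 in CP+siNC at 24.0 ± 0.731, close to FADD at 25.0 ± 0.481 CPM per kb of transcript, and these did not differ beyond their spread. In CP+siNAT10 CASP8 was at position 1 by transcript length, ahead of FADD, and these did not differ beyond their spread either. FAS was thus among the lowest of the 10 genes by either length, while the rank of CASP8 depended on the length used. So did other ranks, since in CP+siNC RIPK1 went from position 6 to 3 and TNFRSF10A from 3 to 6.

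The wider pathway was described with 11 gene lists, in which the 10 genes are included. Of 110 listed genes 96 were tested, and 68 passed an adjusted p of 0.05, 24 higher and 44 lower, which is 70.8% where 44.1% of all tested genes passed. Their median log2 fold change was -0.097, beside 0.0070 for all tested genes, and 3 genes passed both limits, FAS, BIRC3 and CCNG1. Without the list of p53 targets, 47 of 71 tested genes passed, 22 higher and 25 lower, with a median of -0.0095. The lists were chosen with earlier results of these libraries known, and they do not hold every gene of the pathway. The counts of each list can be set beside the 21.8% of all tested genes that were higher and the 22.3% that were lower.

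RNA of 4 of the 5 death ligand genes was scarce. FASLG, TNF, LTA and TNFSF15 had 16, 3, 53 and 10 counts over the 6 libraries and were not tested. TNFSF10, the gene of TRAIL, was at 16.4 ± 1.46 CPM in CP+siNC and 18.8 ± 1.04 CPM in CP+siNAT10 (SD, n = 3), and it rose with a log2 fold change of 0.19 (SE 0.0703, adjusted p = 0.0292 by the edgeR quasi-likelihood fit with Benjamini-Hochberg correction), though the groups overlapped. Protein from other sources, such as serum or added ligand, was not measured.

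Of 8 death receptor genes 7 were tested, 3 higher, 3 lower and 1 not past the test, with a median of -0.074. Beside the members already described, TNFRSF25, the gene of DR3, fell from 6.05 ± 0.230 to 3.91 ± 0.413 CPM (log2 fold change -0.62). TNFRSF21, the gene of DR6, rose from 16.6 ± 1.09 to 20.2 ± 0.929 CPM (0.28), and NGFR, the low-affinity neurotrophin receptor gene, fell from 2.46 ± 0.222 to 1.56 ± 0.0914 CPM (-0.67). Of 4 decoy receptor genes the 2 tested both fell, with a median of -0.63. These were TNFRSF10D and TNFRSF6B, a secreted decoy for FAS ligand, which went from 3.86 ± 0.464 to 2.05 ± 0.152 CPM (SD, n = 3), a log2 fold change of -0.91 (adjusted p = 1.82e-05 by the edgeR quasi-likelihood fit). TNFRSF10C and TNFRSF11B had 3 and 7 counts.

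Among 13 other genes of the TNF receptor superfamily, 11 were tested, 2 were higher and 4 lower, with a median of 0.016. CD40, a receptor that activates NF-kappaB, fell from 62.9 ± 0.661 to 41.9 ± 0.850 CPM (SD, n = 3; log2 fold change -0.59, adjusted p = 3.28e-12 from edgeR). TNFRSF9, the gene of 4-1BB, fell with a log2 fold change of -0.52. RELT rose with 0.24, and TNFRSF1B, the gene of TNF receptor 2, rose from 3.75 ± 0.169 to 5.24 ± 0.184 CPM with a log2 fold change of 0.48. Both TNF receptor genes were thus higher with NAT10 siRNA.

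The 4 genes of the receptor-proximal complex gave 1 higher, 1 lower and 2 not past the test, with a median of -0.032, or 0.0060 when scaled by total counts only, where the median of all tested genes was 0.0444. Of 12 kinases and adaptors of the TNF receptor 1 complex, 5 were higher, 3 lower and 4 did not pass, where 21.8% of all tested genes were higher and 22.3% lower, with a median of 0.068. IKBKB, a kinase that releases NF-kappaB, rose from 22.5 ± 0.602 to 28.5 ± 1.12 CPM (log2 fold change 0.34), and MAP3K7, the gene of TAK1, rose with 0.22. TAB2, a partner of TAK1, fell with -0.19.

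Of 12 genes of ubiquitin ligases and deubiquitinases, all tested, 3 were higher and 4 lower, where 21.8% of all tested genes were higher and 22.3% lower, with a median of 0.024. BIRC3, the gene of the ligase cIAP2, which ubiquitinates RIPK1, was at 33.4 ± 0.963 CPM in CP+siNC and 13.2 ± 1.07 CPM in CP+siNAT10 (SD, n = 3), a log2 fold change of -1.33 (SE 0.0618, adjusted p = 3.10e-16 by the edgeR quasi-likelihood fit with Benjamini-Hochberg correction). BIRC2, its paralog that encodes cIAP1, fell from 42.7 ± 1.53 to 27.4 ± 2.36 CPM (-0.64). TNFAIP3, which encodes the ubiquitin-editing protein A20, fell from 36.6 ± 2.74 to 21.0 ± 0.598 CPM (-0.80). CYLD, a deubiquitinase of the same complex, fell from 105.4 ± 2.35 to 82.8 ± 4.19 CPM (-0.35). The genes of the 3 subunits of the linear ubiquitin ligase rose, RBCK1 with a log2 fold change of 0.25, SHARPIN with 0.22 and RNF31 with 0.13 (adjusted p = 0.0400, edgeR, with overlapping groups). ITCH, another ligase, had a log2 fold change of 0.075 and did not pass (adjusted p = 0.147, edgeR).

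Necroptosis needs RIPK3 and MLKL. RIPK3 had 0 counts in all 6 libraries, and ZBP1 had 2. MLKL was measured at 46.8 ± 0.789 and 43.7 ± 1.87 CPM (SD, n = 3) with a log2 fold change of -0.095 (adjusted p = 0.0963 by the edgeR quasi-likelihood fit), and PGAM5 had 0.0025 (adjusted p = 0.973, edgeR), so neither passed. Of 10 genes of the mitochondrial link and DNA fragmentation, all tested, 2 were higher, 4 lower and 4 did not pass, with a median of -0.14. DFFB, the apoptotic nuclease gene, fell with -0.36 (adjusted p = 0.0196, edgeR), its inhibitor gene DFFA with -0.19, the caspase inhibitor gene XIAP with -0.17 and the cytochrome c gene CYCS with -0.14. APAF1, the scaffold that cytochrome c binds, rose from 35.8 ± 1.56 to 40.6 ± 1.70 CPM (SD, n = 3), a log2 fold change of 0.18 (SE 0.0495, adjusted p = 0.00337 by the edgeR quasi-likelihood fit).

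Of 12 other genes of death domain and related proteins 10 were tested, 5 higher and 4 lower, with a median of 0.018. DAPK1, a death-associated kinase, rose from 14.8 ± 1.74 to 29.1 ± 1.23 CPM (SD, n = 3), a log2 fold change of 0.97 (SE 0.0679, adjusted p = 1.78e-12 by the edgeR quasi-likelihood fit). The changes of DAXX, DAP3 and FAIM were small, at -0.15, -0.13 and 0.17.

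FAS is a known target gene of p53, so a list of 26 other p53 targets is given beside it. Of 25 tested, 19 were lower, 2 higher and 4 did not pass, where 22.3% of all tested genes were lower and 21.8% higher, with a median log2 fold change of -0.27 beside 0.0070 for all tested genes. CCNG1 fell from 38.8 ± 2.77 to 12.7 ± 0.671 CPM (SD, n = 3), a log2 fold change of -1.61 (adjusted p = 6.59e-18 by the edgeR quasi-likelihood fit). TP53INP1, FDXR, GADD45A and PMAIP1, the gene of NOXA, had log2 fold changes of -0.93, -0.79, -0.53 and -0.42. The 2 that rose were PERP, with a log2 fold change of 0.39 (adjusted p = 9.81e-08, edgeR), and BTG2, with 0.36 (adjusted p = 2.05e-07, edgeR). TNFRSF10B, which is also known as a p53 target, had the log2 fold change of 0.13 given above, which did not pass in 4 of 14 alternatives. The part of p53 in the fall of FAS was not tested.

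**Figure D3:**
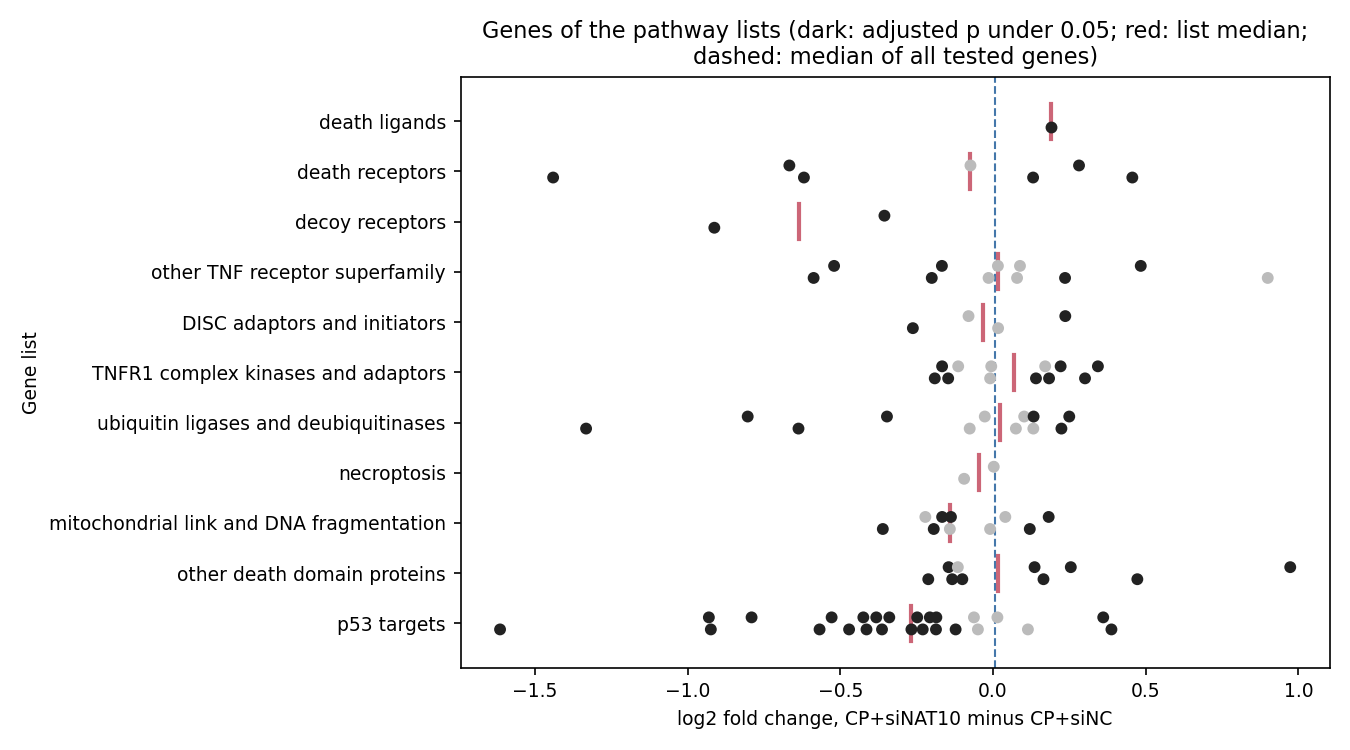
Log2 fold changes of the tested genes in each of 11 lists, dark where the adjusted p was under 0.05, with red lines at list medians and a dashed line at the median of all tested genes. The p53 targets lie mostly left of the dashed line, and the other lists with 4 or more tested genes spread to both sides.

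The genes whose pattern over the 6 libraries was most like that of FAS were found by the root mean square difference of log2 CPM, after centring each gene on its mean, among 12303 other genes whose mean reached 5 CPM. They were LOX, which encodes lysyl oxidase, at 0.064, IFIT2, an interferon-induced gene, at 0.073, the unnamed gene ENSG00000272149 at 0.087, PNMA8A at 0.094 and CTSS, the gene of cathepsin S, at 0.094. All 5 had lower CPM with NAT10 siRNA, with log2 fold changes between -1.50 and -1.41. LOX, for example, went from 20.1 to 7.40 mean CPM. With 6 libraries in 2 groups, this measure is small for any gene with a group difference close to that of FAS.

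The 3′ UTRs of the 10 genes were also searched for 3 heptamers, which were taken from an earlier search of these same libraries. One was GACTATC, which none of the 10 genes held in the longest 3′ UTR annotated in the basic set of GENCODE 29. CFLAR held 1 match to the heptamer ACTATCA in its 12714 bases of 3′ UTR. It also held 1 match to the remaining heptamer, spelled CATATTC. FAS and the other 8 genes held none, in 3′ UTRs of 469 to 2538 bases. Of 13071 tested protein-coding genes 17.1% held at least 1. This share is over 3′ UTRs of all lengths, and a 3′ UTR as long as that of CFLAR has more places for a match, so the 2 matches are given as a description only.

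Markers of endothelial and immune cells were low, while the fibroblast marker COL1A1 was measured at over 10 CPM. Of 4 endothelial markers none had enough counts to test, PECAM1 led with 23 counts, and the list summed to between 0.0531 and 0.514 CPM per library. Of 6 immune markers 2 were tested, and the list summed to 2.60, 2.66 and 2.13 CPM in CP+siNC and 2.18, 2.75 and 2.56 CPM in CP+siNAT10. CD14 was the most abundant, at 1.07 ± 0.298 and 1.04 ± 0.319 CPM (SD, n = 3; adjusted p = 0.946, edgeR). PTPRC was higher, at 8, 10 and 7 counts in CP+siNC and 10, 29 and 17 in CP+siNAT10 (adjusted p = 0.0411, edgeR), with CP+siNAT10 replicate 2 the highest. NKG7, which was not tested, had 9, 11 and 13 counts in CP+siNC and 6, 6 and 4 in CP+siNAT10. Of 4 fibroblast markers only COL1A1 was tested. It rose from 10.5 ± 0.536 to 13.6 ± 1.53 CPM (log2 fold change 0.38), and the list summed to 10.8, 11.5 and 10.3 CPM in CP+siNC and to 13.1, 15.6 and 12.9 CPM in CP+siNAT10, so the sum followed COL1A1. PDGFRB, which was not tested, had 7, 8 and 6 counts in CP+siNC and 4, 2 and 3 in CP+siNAT10, while COL1A2 and DCN had 4 and 3 counts in all. The part of these genes in the changes of the death receptor genes was not tested. Of 5 genes of tubular injury 3 were higher and 2 lower, where 21.8% of all tested genes were higher and 22.3% lower. The largest change was that of LCN2, from 7.40 ± 0.695 to 15.7 ± 0.863 CPM (log2 fold change 1.08). SOX9 and HAVCR1 rose with 0.43 and 0.41. SPP1 fell with -0.85, and CLU, the most abundant, fell with -0.28. The paper reports that lentiviral NAT10 knockdown lessened Cisplatin damage in HK-2 cells. It judged this by LCN2 RNA from qPCR and KIM-1 protein from western blots. The libraries here came from siRNA. In them RNA of LCN2 and of HAVCR1, the gene of KIM-1, was higher with NAT10 siRNA, and KIM-1 protein was not measured.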

How the data were processed

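RNA of Cisplatin-treated HK-2 cells was sequenced in 3 CP+siNC and 3 CP+siNAT10 libraries, and no library or column of values was left out (0 unused). The authors trimmed reads with Trimmomatic 0.36, aligned them with STAR 2.5.3a to GRCh38, counted them with featureCounts of Subread 1.5.1 and named edgeR 3.12.1. The deposited values are raw counts per gene. The library kit adds random molecular identifiers so that duplicate reads can be corrected for. Whether they were merged before counting, the strand setting and the annotation release are not given in the sources used. Of tested genes 95.3% were found in GENCODE 29 by identifier, and 99.9% of these overlapped the table's position, although none of the 10 members had the same start and end in both.

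The filter filterByExpr, with a count limit of 10 and a total limit of 15, left 19874 of 62754 genes. Counts were scaled by TMM and compared by the quasi-likelihood test without a replicate term (R 4.3.3, edgeR 4.0.16, limma 3.58.1). CPM are relative to TMM-scaled totals, and standard errors come from the fold change and F statistic. A gene passed at an adjusted p under 0.05, and passed both limits if its log2 fold change was also over 1 in size. Replicates varied with a chi-square per gene of 1.74 to 2.55, where counting noise gives about 1. Their common biological coefficient of variation was 3%. The adjusted p values measure changes against this spread between libraries. Whether it holds variation between separate cultures is not stated. Intervals assume that counts are independent molecules. The fit was tested on simulated data for CP+siNAT10 against CP+siNC over 19597 genes. It called 47 of 70 genes shifted by 0.5 log2 units, 63 of 68 shifted by 1 and 57 of 57 shifted by 2. Of 19402 unshifted genes it called 6. Few genes were shifted there, and all were drawn with the same dispersion, whereas 44.1% of tested genes passed in the data. These rates therefore need not carry over to the data, and shifts smaller than 0.5 were not simulated.

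Members and lists were chosen with earlier results of these data known. Named genes were the 10 members, NAT10, genes overlapping a member, and per list those past both limits and up to 4 others with the smallest adjusted p and a mean of at least 1 CPM. They also included the 5 genes most like FAS and, per marker list, the highest gene and those at 0, while further genes were named after their values were seen, as were the list markers with few counts. Alternatives were RLE, upper quartile and library size scaling, other filters, DESeq2 1.42.0, limma-voom, glmTreat, a replicate block, another pseudocount and leaving out each library. Tables were made in Python 3.11.15 (pandas 2.3.3, numpy 2.4.6), and plots in matplotlib 3.10.9.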

Additional observations from a re-analysis of the deposited data

How the results depend on the processing

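The counts of members past the adjusted p, 7 in all, 4 lower and 3 higher, were 6, 4 and 2 with DESeq2 and 7, 4 and 3 under each other scaling, filter and limma-voom. Leaving out each library in turn gave 6 to 7 members, 4 lower and 2 to 3 higher, and without CP+siNC replicate 2 the 7 included TRADD and not TNFRSF10B. FAS was the 1 member past both limits under every alternative, glmTreat included. For the pathway lists 68 genes passed, with 57 under DESeq2, and 59 to 65 when a library was left out. Calls over all tested genes fell too, from 8771 to 6652 under DESeq2 and to between 7822 and 8168 when a library was left out. Of the log2 fold changes, those of FAS, TNFRSF10A, TNFRSF10D, TNFRSF1A, CASP8, CFLAR and RIPK1 kept their direction and side of the threshold under all 14 alternatives, with FAS between -1.51 and -1.39. TNFRSF10B lost its call in 4 of 14, with values between 0.091 and 0.17. FADD reversed to -0.034 without CP+siNAT10 replicate 2, and leaving out a library gave -0.034 to 0.048. TRADD ran from -0.0047, reversed without CP+siNC replicate 3, to 0.34, where it passed. The cause was not tested. The 4 ratios kept their direction with a pseudocount of 1 and without any single library. The level of FAS per kb moved from 0.514 to 5.88 with the transcript length.

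The replicate numbers did not pair the libraries. Deviations of same-numbered libraries correlated at 0.0081, 0.064 and -0.21 over 12304 genes, and not every library correlated best with its own number. With the replicate number as a block, 7 members passed, 4 lower and 3 higher, 1 past both limits, and 66 pathway genes.

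The fewest counts per library among the members were those of TRADD, from 91 to 190, and FAS, from 107 to 302, and 4 of the 5 ligand genes could not be tested at this depth. Protein, cleavage and surface receptor were not measured, the comparison has 3 libraries per group of 1 cell line, and no group lacked Cisplatin.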
